A study of Homo sapiens with 7 samples.

Results

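Transcript levels of 10 genes of double-stranded RNA sensing were examined in RH30, an established cell line of alveolar rhabdomyosarcoma (RMS), after treatment with BV6. The genes were taken by name from the 57189 genes of the deposited count table, and all 10 were found: the RNA helicases IFIH1 (MDA5), DDX58 (RIG-I, now named RIGI) and DHX58 (LGP2), the adaptor MAVS, the receptor TLR3, the kinase EIF2AK2 (PKR), the RNA editor ADAR, the Z-RNA receptor ZBP1 and the kinases TBK1 and IKBKE. BV6 is a synthetic Smac mimetic, which like mitochondrial Smac antagonizes inhibitor of apoptosis proteins (IAPs). RNAseq counts were available for 4 samples of untreated RH30 cells and 3 samples of RH30 cells given 5 µM BV6 for 24 h. The labels name the cells wild type, and the study's methods state that RH30 cells expressing GFP and luciferase were used throughout. The sample titles carry a BC label that BV6 replicates 2, 3 and 4 share with untreated replicates 2, 3 and 4, and the label of untreated replicate 1 occurs once. The study calls its RNAseq samples biological replicates, but the labels do not say whether they came from separate cultures, nor what the BC label means, so p-values measure the spread between these samples, which may be technical.

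Cells detect viral RNA, and their own misplaced RNA, by its double-stranded form. MDA5 binds long duplexes and RIG-I binds short duplexes with triphosphate ends, and both pass the signal through their CARD domains to MAVS on the mitochondrial surface. LGP2 is related to them but has no CARD domain and modulates their activity. MAVS in turn recruits TBK1 and its close relative IKKε, the product of IKBKE, which phosphorylate interferon regulatory factors and so switch on interferon genes. TLR3 senses the same kind of RNA inside endosomes, not in the cytosol, and signals through another adaptor. PKR halts translation by phosphorylating eIF2α, ADAR converts adenosine to inosine and so weakens duplexes, and ZBP1 recognizes the left-handed Z form of nucleic acids. Several of these genes are themselves interferon-stimulated.

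The libraries held between 54070030 and 77220882 counts. These totals exceed the number of sequencing reads per library given in the methods, and whether both mates of a pair were counted is not stated. Levels are given as CPM, counts scaled to the TMM-normalized library size. The detection floor of 3 counts was equal to 0.0388 to 0.0555 CPM and covers counting error only. Myogenic markers of RMS were present in every sample, with MYOD1 at 157 to 474 CPM, MYOG at 78.8 to 226 CPM, DES at 451 to 865 CPM and MYF5 at 4.76 to 7.46 CPM, and MYF6 had at most 5 counts. The 8 leukocyte markers summed to 9.55 to 13.6 CPM in untreated and 6.85 to 11.2 CPM in BV6-treated samples, most of it NKG7 (5.29 to 11.1 CPM), while PTPRC, CD3E, CD2, MS4A1, CD14, LYZ and GNLY had 2 to 58 counts per library. In bulk RNA, a change in the number of cells with a transcript and a change in the amount per cell cannot be told apart.

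Of the 10 genes, IFIH1 and DDX58 were called higher with BV6 and none was called lower. Calls were made with the quasi-likelihood test of edgeR, adjusted by Benjamini-Hochberg over the 23124 genes with enough counts, among which 0.394% were called higher and 0.0562% lower at an adjusted p below 0.05. The test covered 9 of the 10 genes, since ZBP1 had too few counts. DESeq2 also called IFIH1 and DDX58 higher and none of the 10 lower, with 1.02% of all genes called higher and 0.678% lower. The median log2 fold change of the 9 was 0.24, beside -0.01 for all genes tested. The genes were chosen with earlier results of these data known, and this difference was not tested. In 4 of the 9 genes, IFIH1, DDX58, DHX58 and TLR3, every BV6 sample lay above every untreated sample, a pattern that 4.94% of all tested genes showed. In none of them was every BV6 sample below (3.89% of all tested genes), and in the other 5 the groups overlapped.

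**Figure D1:**
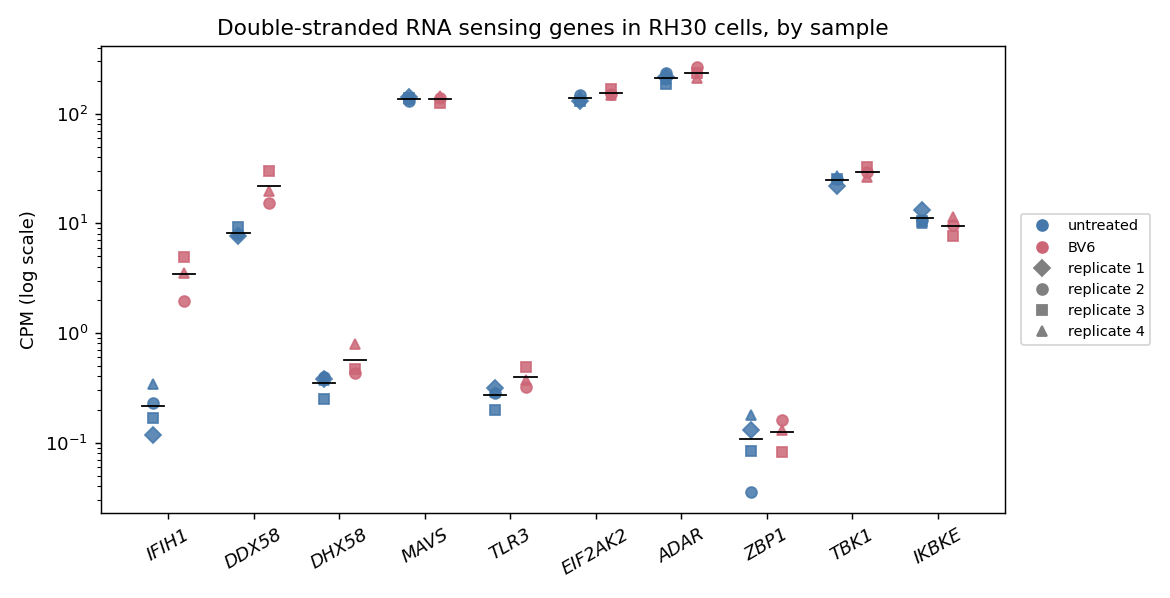
Level of each gene in every sample, in CPM on a log axis, with untreated samples in blue, BV6-treated samples in red, the symbol marking the replicate number and the black line the group mean. The BV6 samples of IFIH1 lie between 1.96 and 4.91 CPM, above all untreated samples (0.117 to 0.34 CPM), whereas the groups of MAVS, EIF2AK2, ADAR, ZBP1, TBK1 and IKBKE overlap.

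IFIH1 encodes MDA5 and lies on the minus strand of chromosome 2 (162267074 to 162318684, GRCh38). It had 9, 13, 10 and 21 counts in untreated replicates 1 to 4 and 110, 301 and 189 counts in BV6 replicates 2, 3 and 4. All untreated samples were therefore above the detection floor but low, and all BV6 samples were higher. The mean level was 0.213 ± 0.0963 CPM without BV6 (SD, n = 4) and 3.46 ± 1.48 CPM with it (SD, n = 3). With condition as the only term, the fold change was 16.3 (95% confidence interval 8.59 to 30.8). This was 4.02 on the log2 scale (standard error 0.411, adjusted p = 0.0049, edgeR). Within the pairs that share a BC label, the level was 8.46, 29.6 and 10.3 times higher with BV6 in replicates 2, 3 and 4. With the replicate number added to the fit as a block, the log2 fold change was 3.75 (adjusted p = 0.00801, edgeR). When each of the 7 samples was left out in turn, IFIH1 was called every time, with log2 fold changes of 3.69 to 4.35.

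DDX58 encodes RIG-I, and the gene lies on the minus strand of chromosome 9 (32455302 to 32526208). It had 584, 444, 555 and 501 counts in untreated replicates 1 to 4 and 861, 1832 and 1059 counts in BV6 replicates 2, 3 and 4, so its untreated level was far above that of IFIH1. BV6 replicate 3 was the highest sample for both helicases and BV6 replicate 2 the lowest treated sample, still above every untreated sample. The mean was 8.2 ± 0.706 CPM without BV6 (SD, n = 4) and 21.6 ± 7.47 CPM with it (SD, n = 3), a fold change of 2.64 (95% confidence interval 1.9 to 3.67). On the log2 scale this was 1.40 (standard error 0.212, adjusted p = 0.0263, edgeR). The pairs gave folds of 1.94, 3.24 and 2.43, and the fit with the replicate block a log2 fold change of 1.31 (adjusted p = 0.015, edgeR). The call was lost without any 1 of the untreated replicates 1 to 4 or without BV6 replicate 4 (adjusted p of 0.116, 0.0934, 0.0845, 0.0988 and 0.0805, edgeR), while the log2 fold change stayed between 1.10 and 1.61 over all 7 such fits. In GENCODE release 44, a gene model absent from the count table, ENSG00000288684, shares 4471 exonic bases with DDX58 on the same strand.

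DHX58 encodes LGP2 and lies on the minus strand of chromosome 17 (42101404 to 42112714). It had few counts, with 29, 22, 15 and 23 counts in untreated replicates 1 to 4 and 24, 29 and 43 counts in BV6 replicates 2, 3 and 4. Its level was 0.347 ± 0.0662 CPM without BV6 (SD, n = 4) against 0.566 ± 0.202 CPM (SD, n = 3). The groups did not overlap, but the lowest BV6 sample (0.427 CPM) was barely above the highest untreated sample (0.392 CPM). The log2 fold change was 0.70 with a 95% confidence interval of -0.06 to 1.45, and DHX58 was not called (adjusted p = 0.625, edgeR).

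The helicases were also set against each other within each library. The ratio of IFIH1 to DDX58 counts within a library, which needs no library size, was -5.31 ± 0.641 on the log2 scale without BV6 (SD, n = 4) and -2.68 ± 0.25 with it (SD, n = 3). The difference of 2.63 had p = 0.0571 in an exact two-sided permutation test, which is the smallest value that 4 samples against 3 allow. For IFIH1 to DHX58 the log2 ratio went from -0.77 to 2.55, a difference of 3.32 with the same exact permutation p of 0.0571. Per kilobase of canonical transcript, IFIH1 made up 3.02% ± 1.34 of the summed level of the 3 helicases without BV6 (SD, n = 4) and 16.1% ± 2.22 with it (SD, n = 3). DDX58 remained the largest part, at 90.1% ± 2.34 and 79.9% ± 2.86.

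**Figure D2:**
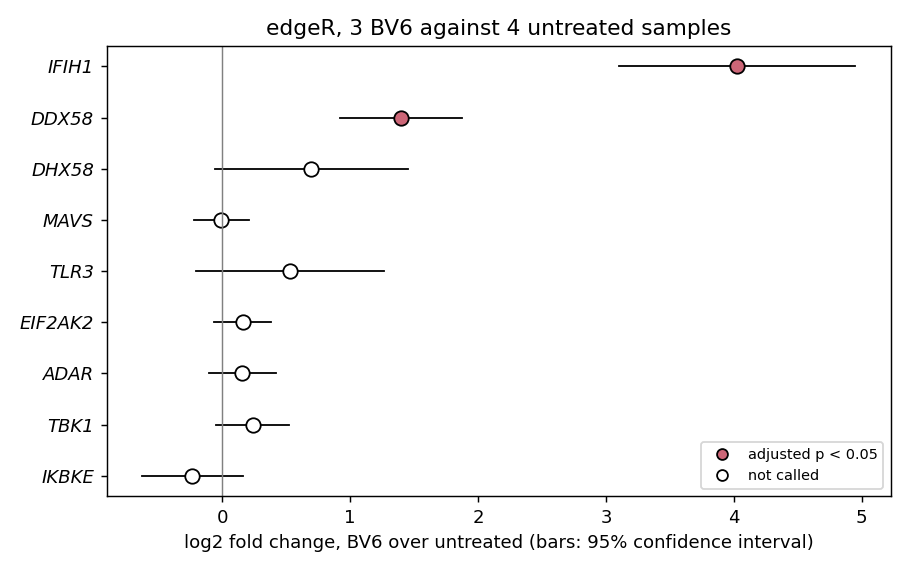
Log2 fold change of BV6 over untreated samples for the 9 tested genes (points) with the 95% confidence interval (bars), filled where the edgeR adjusted p was below 0.05. The intervals were calculated from the F statistic of the edgeR test. IFIH1 (4.02) and DDX58 (1.40) are filled, and the intervals of the other 7 genes include 0.

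The sequences in front of IFIH1 and DDX58 are shown because these were the genes called higher. RefSeq windows of 300 bases around the gene start (GRCh38.p14) were found for 8 of the 10 genes, in 10 windows, and not for DHX58 and ZBP1. They were searched on both strands for the letters of an interferon-stimulated response element (ISRE, written GAAA, 2 bases of any kind, GAAA), of a κB site (GGGA, 4 bases of any kind, CC) and of an interferon-γ activated site (GAS, TTC, 3 bases of any kind, GAA). The 250 bases before the start of IFIH1 (chr2:162318685-162318934, minus strand) and of DDX58 (chr9:32526197-32526446, minus strand) are given 5′ to 3′, with ISRE and κB matches in capitals.
IFIH1: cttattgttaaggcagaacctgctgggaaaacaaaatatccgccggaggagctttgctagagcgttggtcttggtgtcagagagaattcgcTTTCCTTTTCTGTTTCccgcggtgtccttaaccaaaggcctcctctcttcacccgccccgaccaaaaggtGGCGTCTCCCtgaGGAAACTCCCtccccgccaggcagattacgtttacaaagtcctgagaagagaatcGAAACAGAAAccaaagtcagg
DDX58: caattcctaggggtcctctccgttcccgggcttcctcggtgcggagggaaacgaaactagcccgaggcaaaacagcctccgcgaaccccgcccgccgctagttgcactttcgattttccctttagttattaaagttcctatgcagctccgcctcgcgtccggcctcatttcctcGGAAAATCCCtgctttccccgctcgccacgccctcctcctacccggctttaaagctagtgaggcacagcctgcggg
IFIH1 held 3 ISRE matches, beginning at positions -159, -153 and -21 relative to the start, of which the first pair overlap each other, and 2 κB matches at -89 and -76. DDX58 held 1 κB match, at -76, and no ISRE match in this window. Across all 35116 windows, 3.57% held an ISRE match, 25.6% a κB match and 7.66% a GAS match. An ISRE match was also present at the RefSeq start of EIF2AK2 (chr2:37156967-37156996, minus strand) and TLR3 (chr4:186069142-186069171, plus strand), genes that were not called. These RefSeq starts lie inside the GENCODE spans given for the same genes below. The 30 bases around each match, with the ISRE match in capitals, allow comparison with IFIH1.
EIF2AK2: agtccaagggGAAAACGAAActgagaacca
TLR3: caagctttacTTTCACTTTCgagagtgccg
IKBKE held a κB match and TLR3 the letters of a GAS at -178 and at -50. MAVS, TBK1 and the 3 windows of ADAR held none of the 3 motifs. These matches describe letters in the reference and were not measured as binding.

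Of the adaptor and the kinases below the helicases, MAVS was the most abundant, and none was called. MAVS (chromosome 20, 3846799 to 3876123) had 143, 130, 138 and 135 CPM in untreated replicates 1 to 4 and 138, 125 and 144 CPM in BV6 replicates 2, 3 and 4, with full overlap. Its log2 fold change was -0.0057 with a 95% confidence interval of -0.22 to 0.21 (adjusted p = 0.992, edgeR). TBK1 (chromosome 12, 64452090 to 64502114), the broadly expressed kinase, had 21.7 to 27.0 CPM in untreated and 26.3 to 32.6 CPM in BV6-treated samples. For TBK1 the log2 fold change was 0.24 (95% confidence interval -0.05 to 0.53, adjusted p = 0.677, edgeR). IKBKE (chromosome 1, 206470476 to 206496889), which encodes the inducible relative IKKε, had 10.1 to 13.3 CPM in untreated and 7.63 to 11.3 CPM in BV6-treated samples, with overlap. The change in IKBKE was -0.23 on the log2 scale (95% confidence interval -0.63 to 0.16, adjusted p = 0.766, edgeR). The log2 ratio of IKBKE to TBK1 counts differed by -0.48 between the groups (exact two-sided permutation p = 0.229).

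The effectors and modifiers outside the MAVS route followed. EIF2AK2 (chromosome 2, 37099210 to 37157522) had 131, 148, 131 and 144 CPM in untreated replicates 1 to 4 and 151, 167 and 147 CPM in BV6 replicates 2, 3 and 4. Its log2 fold change was 0.16 with a 95% confidence interval of -0.06 to 0.38, which leaves room for a rise of up to 1.30-fold (adjusted p = 0.722, edgeR). ADAR (chromosome 1, 154581695 to 154628013), the most abundant of the 10 genes, had 188 to 237 CPM in untreated and 209.5 to 265 CPM in BV6-treated samples. For ADAR the log2 fold change was 0.16 (95% confidence interval -0.11 to 0.42, adjusted p = 0.764, edgeR). Counts per gene do not separate the interferon-inducible from the constitutive isoform of ADAR.

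TLR3 and ZBP1 had few counts in every sample. TLR3 (chromosome 4, 186068911 to 186088073) had 24, 16, 12 and 18 counts in untreated replicates 1 to 4 and 18, 30 and 20 counts in BV6 replicates 2, 3 and 4. In CPM the lowest BV6 sample (0.321) just exceeded the highest untreated sample (0.312). The log2 fold change of 0.53 had a wide 95% confidence interval of -0.20 to 1.27 and was not called (adjusted p = 0.722, edgeR). ZBP1 (chromosome 20, 57603846 to 57620576) had 10, 2, 5 and 11 counts in untreated replicates 1 to 4 and 9, 5 and 7 counts in BV6 replicates 2, 3 and 4, with overlap and too few counts for the test. A rise of the size seen in IFIH1 was not present in ZBP1, and a smaller difference could not be resolved at these counts.

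**Figure D3:**
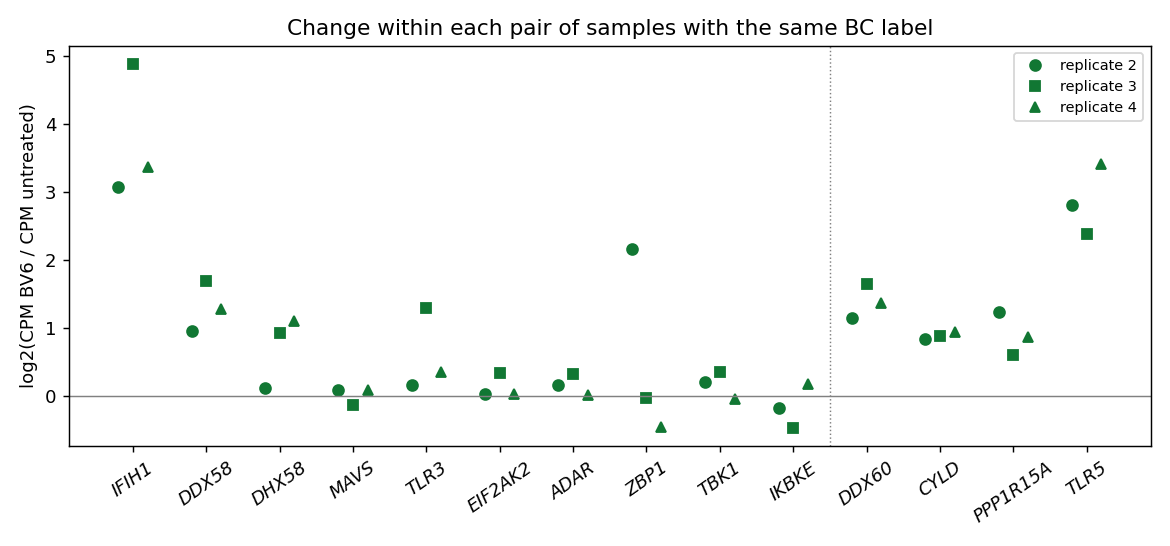
Log2 ratio of CPM in each BV6 sample to the untreated sample with the same BC label, for the 10 genes (left of the dotted line) and for DDX60, CYLD, PPP1R15A and TLR5 (right of it), with the symbol marking the replicate number. All 3 pairs of IFIH1 lie above 3, those of DDX58 lie between 0.95 and 1.70, and those of MAVS, ZBP1, TBK1 and IKBKE lie on both sides of 0.

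Levels of different genes were compared per kilobase of the Ensembl canonical transcript. In untreated cells the order was ADAR (32.1 ± 3.07 CPM per kilobase, SD, n = 4), EIF2AK2 (13.9 ± 0.877), MAVS (11.6 ± 0.467), TBK1 (8.24 ± 0.753), IKBKE (3.45 ± 0.452), DDX58 (1.77 ± 0.153), DHX58 (0.134 ± 0.0255), IFIH1 (0.0596 ± 0.0269), ZBP1 (0.0498 ± 0.0285) and TLR3 (0.0452 ± 0.00826). The ranges of IFIH1, ZBP1 and TLR3 overlapped, so their order is not resolved. With the length of all exons in place of the canonical transcript, TBK1 and IKBKE changed places, as did ZBP1 and TLR3. With BV6, DDX58 reached 4.67 ± 1.61 CPM per kilobase (SD, n = 3) and its range overlapped that of IKBKE. IFIH1 reached 0.966 ± 0.412 (SD, n = 3), above DHX58 (0.219 ± 0.0782), and remained under DDX58.

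The profile of IFIH1 over the 7 samples was most like those of LACTB (Pearson r = 0.995 of log2 CPM), RPL5P3 (r = 0.994), MREG (r = 0.992), ZNF267 (r = 0.984) and CYLD (r = 0.984) among the tested genes. These values describe samples that fall into a treated and an untreated group. Of the 5 genes, LACTB (log2 fold change 1.15, adjusted p = 0.0106) and CYLD were called higher by edgeR.

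Further genes of the pathway were grouped in lists by function. Among 18 tested regulators of the RIG-I-like receptors, CYLD was the gene called higher by edgeR and none was called lower, with a median log2 fold change of 0.15. CYLD, a deubiquitinase that restrains NF-κB and RIG-I signaling, rose by 0.96 ± 0.118 (standard error) on the log2 scale, from a mean of 32.4 ± 3.18 CPM without BV6 (SD, n = 4) to one of 62.8 ± 4.8 CPM with it (SD, n = 3). Its adjusted p was 0.0109 by edgeR, and it was called whichever of the 7 samples was left out. DESeq2 called 3 of the regulators higher, CYLD, ZC3HAV1 and DDX60, and none lower. ZC3HAV1, the zinc finger antiviral protein, had a log2 fold change of 0.53 without overlap between the groups (54.6 to 58.0 CPM in untreated and 73.3 to 97.6 CPM in BV6-treated samples). It was not called by edgeR (adjusted p = 0.152) and was called by DESeq2 (adjusted p = 0.036). DDX60, a helicase linked to RIG-I-like receptors that is named here after its values were seen, had 6.15, 4.38, 10.2 and 9.62 CPM in untreated replicates 1 to 4 and 9.69, 31.9 and 25.0 CPM in BV6 replicates 2, 3 and 4. These ranges overlapped, although within every pair sharing a BC label the BV6 sample was the higher one, by 2.21 to 3.13 times. Its log2 fold change of 1.55 was not called without the replicate block (adjusted p = 0.21) and was called with it (adjusted p = 0.00801, each by edgeR), where 0.649% of all tested genes were called higher. DESeq2 called DDX60 without the block (adjusted p = 0.00686).

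In the signaling list below MAVS and TLR3, edgeR without the replicate block called none of 19 tested genes, and none had an unadjusted p below 0.05. DESeq2 called none. With the block, 1 gene had an unadjusted p below 0.05 and none was called. That gene was TRAF3 (log2 fold change 0.44, adjusted p = 0.0904, edgeR), named here after its values were seen. Without the block, the smallest p values belonged to TBKBP1 (log2 fold change -0.47, adjusted p = 0.671) and TANK (0.27, adjusted p = 0.677, each by edgeR), which encode adaptors of TBK1. Of 22 genes for duplex binding, PKR regulation and RNA turnover, PPP1R15A was called higher and none lower. PPP1R15A encodes GADD34, which directs a phosphatase to eIF2α and so opposes PKR. It rose by 0.90 ± 0.14 (standard error) on the log2 scale, from a mean of 48.7 ± 3.01 CPM without BV6 (SD, n = 4) to one of 90.6 ± 18.9 CPM with it (SD, n = 3), with an adjusted p of 0.029 by edgeR. That call was lost in 6 of the 7 fits leaving out a sample and held without BV6 replicate 3, with adjusted p between 0.0178 and 0.106 (edgeR). SUPV3L1, a mitochondrial RNA helicase, had a log2 fold change of 0.29 and was not called (adjusted p = 0.638, edgeR).

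**Figure D4:**
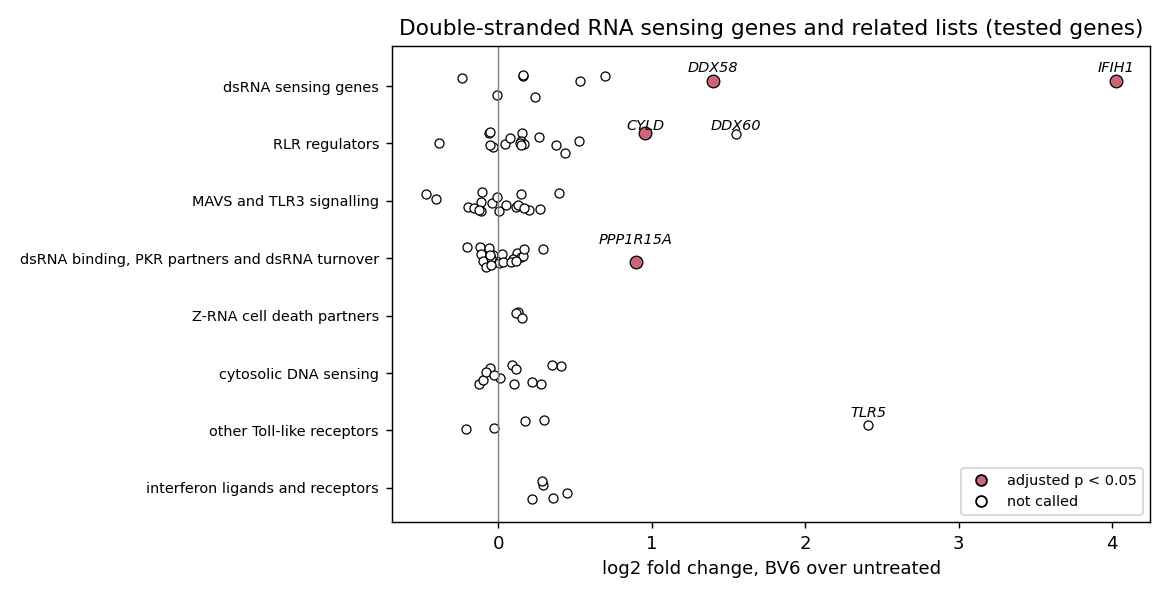
Log2 fold change of BV6 over untreated samples for every tested gene of the 10 sensing genes and of 7 related lists, filled where the edgeR adjusted p was below 0.05 (vertical position within a row is arbitrary). The filled genes are IFIH1, DDX58, CYLD (0.96) and PPP1R15A (0.90), while DDX60 (1.55) and TLR5 (2.41) are labeled but not called.

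Among the genes that act with ZBP1 in cell death, RIPK3 had 4 to 16 counts per library and was not tested, and none of the 3 tested genes was called or had an unadjusted p below 0.05, with log2 fold changes of 0.15 for CASP8 and 0.13 for RIPK1. Cytosolic DNA sensing, the sister pathway, had no call among 13 tested genes in edgeR or DESeq2, with 2 genes at an unadjusted p below 0.05, CGAS (log2 fold change 0.41, adjusted p = 0.392) and IFI16 (0.35, adjusted p = 0.56, each by edgeR). Of all 23124 genes tested, 1939 had an unadjusted p below 0.05. Among the other Toll-like receptors, 5 of 9 could be tested with edgeR and none was called, while DESeq2 called TLR5. TLR5, the flagellin receptor, had 20, 4, 12 and 6 counts in untreated replicates 1 to 4 and 28, 64 and 56 counts in BV6 replicates 2, 3 and 4, without overlap. Its log2 fold change of 2.41 was not called without the replicate block (adjusted p = 0.0744) and was called with it (adjusted p = 0.0228, each by edgeR), and by DESeq2 without the block (adjusted p = 0.000573), whereas TLR6 had a log2 fold change of -0.21.

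Interferon transcripts, the product of this pathway, were scarce in both groups. IFNB1, the gene of interferon-β, had 0 counts in all 7 libraries, which allows a level of up to 0.0388 to 0.0555 CPM per library. The treated samples were taken at 24 h only, so levels at earlier times were not measured. The 22 interferon ligand genes together had 17, 35, 64 and 40 counts in untreated replicates 1 to 4 and 45, 81 and 54 counts in BV6 replicates 2, 3 and 4, with overlap, and no single gene exceeded 14 counts. Within each pair sharing a BC label the sum was higher with BV6, a difference that was not tested. Many of the interferon-α genes, and the interferon-λ genes IFNL2 and IFNL3, are close copies of each other, so the counts of each are uncertain. Of 5 tested receptor genes none was called by edgeR or DESeq2, although 3 had an unadjusted p below 0.05, as did 1939 of the 23124 genes tested. IFNAR2, a subunit of the type I interferon receptor, had a mean of 89.5 ± 8.79 CPM without BV6 (SD, n = 4) and 122 ± 9.08 CPM with it (SD, n = 3) (log2 fold change 0.45, adjusted p = 0.194), and its partner IFNAR1 had a log2 fold change of 0.29 (adjusted p = 0.452, each by edgeR).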

How the data were processed

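In all, 4 untreated and 3 BV6-treated RH30 samples were analysed. The authors deposited raw counts per gene. They selected poly(A) RNA, built stranded libraries, read both ends and mapped with STAR 2.6.1d on GRCh38 and a custom union model of Ensembl isoforms. The counting program, its use of strand and its handling of mates are not given in the sources used here.

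Groups came from the treatment label and replicate numbers from the BC label of the titles. The quasi-likelihood test of edgeR 4.0.16 under R 4.3.3 was applied to the counts after TMM and filterByExpr (minimum 10), with condition as the only term and Benjamini-Hochberg adjustment over all 23124 genes tested. Calls had an adjusted p below 0.05. The Wald test of DESeq2, which the study also used, was an alternative, run here in version 1.42.0. Other alternatives were the replicate block, RLE factors, other filters on low counts and leaving out each sample. Corrections for GC content and halved counts were added after the data had been seen. Ratios used counts plus 0.5 and an exact permutation test.

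The genes and lists were chosen with earlier results of these data known. All 10 genes, IFNB1, the markers, every called gene and the 2 smallest p of each list, and the 5 genes most like IFIH1 are named by rule. Gene models were those of GENCODE release 44 on the same build, matched for 36611 genes by symbol and 888 by an older symbol. Promoter windows are those of RefSeq.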

Additional observations from a re-analysis of the deposited data

Results flagged for a closer look

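In the untreated samples, DHX58 had 0.249 CPM in untreated replicate 3 and 0.372 to 0.392 CPM in the other 3, so that the gap filled most of the range (ratio 0.86). This rests on 15 counts against 22 to 29. Of 14 genes examined in this way, 1 stood out, and chance alone gives about 1 in 20.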

How the results depend on the processing

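The number of all genes called was 104 of 23124 tested, and 218 of 23124 with the replicate block. Without a filter on low counts it was 242 of 43421, and with DESeq2 408 of 24059. Leaving out a sample gave 38 to 89 of 22590 to 23871. The GC correction gave 218 of 18110, and 1104 of 18110 together with the replicate block. The 2 sensing genes called higher became 1 with at least 10 counts in every sample, because IFIH1 was then not tested, and 1 to 2 when a sample was left out. Apart from these, IFIH1 and DDX58 were called in every alternative run, the replicate block included. The 1 called regulator of RIG-I-like receptors became 3 with DESeq2, 2 without the filter, 2 with the replicate block, 3 with the GC correction and 4 with it and the replicate block. The 1 called gene of duplex binding and turnover became 0 to 1 when a sample was left out. The other Toll-like receptors went from 0 to 1 called gene with DESeq2, without the filter, with the replicate block, with the GC correction and with both. The GC correction with the replicate block also gave 2 calls in the signaling list below MAVS and TLR3, 2 in DNA sensing, 2 among interferon receptors and 1 lower call in duplex binding, where there had been 0. In that setting 1104 of all 18110 tested genes were called. The causes were not tested. The log2 fold change of MAVS, which was never called, changed sign to 0.016 with the replicate block, 0.018 with the GC correction and 0.021 with both, and ranged over -0.051 to 0.053 in the fits lacking 1 sample. The ratio of IFIH1 to DDX58 counts differed by 2.42 within the pairs.

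Samples with the same replicate number deviated from their group means with correlations of 0.462, 0.438 and 0.0847 for replicates 2, 3 and 4, and not every sample correlated best with its own number, so the pairing rests on the shared label. DHX58, TLR3 and ZBP1 are limited by their counts.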
